A study of Bos grunniens with 24 samples.

Results

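NQO1, CYP1A1 and ABCC2 are 3 genes of the intestinal defence against foreign chemicals, taken by gene symbol from the 639 genes of the deposited expression table. They were followed in the jejunum, the middle stretch of the small intestine, of calves of the yak (Bos grunniens). The 24 RNA sequencing libraries form 3 groups of 8. CON are controls, ETEC are calves challenged with enterotoxigenic Escherichia coli, a bacterium whose toxins cause diarrhoea, and PET are calves pretreated with the lactic acid bacterium P. pentosaceus NQ0729 and then given the ETEC challenge. ETEC and PET thus share the challenge and differ in the pretreatment. Neither age, sex, dose, time nor the place of sampling within the jejunum is in the labels used here. The libraries are described as replicate biosamples with no animal named, and p-values thus refer to the spread among these libraries.

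Foreign chemicals that enter an enterocyte, the absorptive cell of the gut lining, are oxidised or reduced, coupled to a water-soluble group and pumped out. CYP1A1 is a cytochrome P450 that oxidises aromatic compounds, and its transcription is switched on by the aryl hydrocarbon receptor (AHR), a sensor of dietary, microbial and industrial ligands. NQO1 reduces quinones without releasing radicals and is a standard target of NRF2, the transcription factor of the oxidative stress response, as well as of AHR. ABCC2, also called MRP2, is an ATP-driven pump of the apical membrane that exports glucuronide, glutathione and sulphate conjugates, and it is also an NRF2 target. These roles are best known from human, mouse and rat.

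In the authors' coordinates, for which the genome build is not given in the sources used here, NQO1 (ENSBGRG00000005507) lies on chromosome 20 from 9532256 to 9546682, plus strand. CYP1A1 (ENSBGRG00000025506) lies on chromosome 17 from 35990069 to 36041088, plus strand. ABCC2 (ENSBGRG00000022859) lies on chromosome 25 from 22440643 to 22518310, plus strand. CYP1A1 has a close relative, CYP1A2, and how reads shared by near-identical genes were counted is not given in the sources used here, so its values carry that uncertainty. The locus listed as CYP1A1 spans 51020 bases, and whether it holds CYP1A1 alone was not tested.

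All 639 listed genes had been called by the authors in at least 1 of the 3 comparisons, that is, with an adjusted p under 0.05 and at least a 2-fold change, so no test on these genes is independent of that choice. Per library, counts over the listed genes summed to 299776 to 826249 (CON), 466708 to 863801 (ETEC) and 475295 to 1209769 (PET). The counts of 10 libraries lay close to a weighted sum of the counts of 2 other libraries of the same group. They are replicates 1 to 3 of CON, 1 to 4 of ETEC and 1 to 3 of PET. Their residual was 0.248 to 0.762 of that left by the best single library, against 0.851 to 1 for the other 14. PET-1, for example, was fitted by 89.9% PET-4 and 10.1% PET-5. The differences of the 3 genes are therefore given with all 24 libraries and with the 14. A library close to a sum of others may not be an independent replicate. All SEs, intervals and p-values over the 24 treat each library as independent, so they may be too small or too narrow. Over the 14 libraries few listed genes passed in edgeR: 0 for ETEC vs CON, 0 for PET vs ETEC and 10 (1.73%) for PET vs CON, while 153, 163 and 156 had an unadjusted p under 0.05. In DESeq2 the calls were 79 (13.7%), 88 (15.2%) and 81 (14%). The comparisons also share their groups pairwise, so they are not independent of each other.

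NQO1 was the most abundant of the 3 genes per unit of length in every group, and its level was higher after the challenge. In CON its FPKM, a fragment count scaled by gene length and by the mapped fragments of the library, was lowest at 8.91 in CON-6, had a median of 11.5 and was highest at 24.8 in CON-7. In ETEC it ran from 22.03 in ETEC-8 over a median of 28.2 to 33.1 in ETEC-3. All 8 ETEC libraries lay above 7 of the 8 controls, and 5 of them above CON-7 as well. In PET it ran from 15.7 in PET-7 over a median of 23.4 to 31.7 in PET-4. All 8 PET libraries lay within or above the range of CON, 3 of them above it, while 3 lay below every ETEC library.

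The mean NQO1 level was 13.9 ± 5.31 FPKM in controls, 27.3 ± 4.63 in the ETEC group and 22.8 ± 5.86 in the PET group (SD, n = 8 each). NQO1 rose by 0.97 ± 0.25 on the log2 scale (SE, 95% interval 0.46 to 1.49) in ETEC against CON, with an adjusted p of 0.00313 in edgeR's quasi-likelihood test. In PET against CON it rose by 0.71 ± 0.25 (interval 0.20 to 1.23, adjusted p = 0.0244, same test). PET and ETEC, the neighbours at the top of the order, differed by -0.26 ± 0.25 (interval -0.77 to 0.25), which did not pass (adjusted p = 0.42). An exact two-sided permutation of the libraries on log2(FPKM + 0.1) gave adjusted p-values of 0.00304, 0.0314 and 0.173 in the same order. In bulk tissue, fewer cells of a type and less RNA per cell cannot be told apart, for this gene and for all that follow.

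The NQO1 differences kept their size but not their call over the 14 libraries: 0.88 in ETEC vs CON (adjusted p = 0.203) and 0.68 in PET vs CON (adjusted p = 0.309), beside -0.20 in PET vs ETEC (adjusted p = 0.833). The PET vs CON call also went without PET-4 (0.63, adjusted p = 0.0522), and TMM scaling gave -0.82 for PET vs ETEC, which then passed (adjusted p = 0.0413), as did 28% of the genes.

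In ETEC vs CON, NQO1 alone of the 3 genes passed, in a comparison where 70.9% of the 577 genes tested did so, 29.6% as higher and 41.2% as lower. In the authors' deposited table, which calls 73.1% of its genes in ETEC vs CON, NQO1 was called up there (log2 fold change 1.04, adjusted p = 3.4e-07). The authors' deposited table lists 0.78 with an adjusted p of 0.00927 for NQO1 in PET vs CON, below the 2-fold limit of a call.

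**Figure D1:**
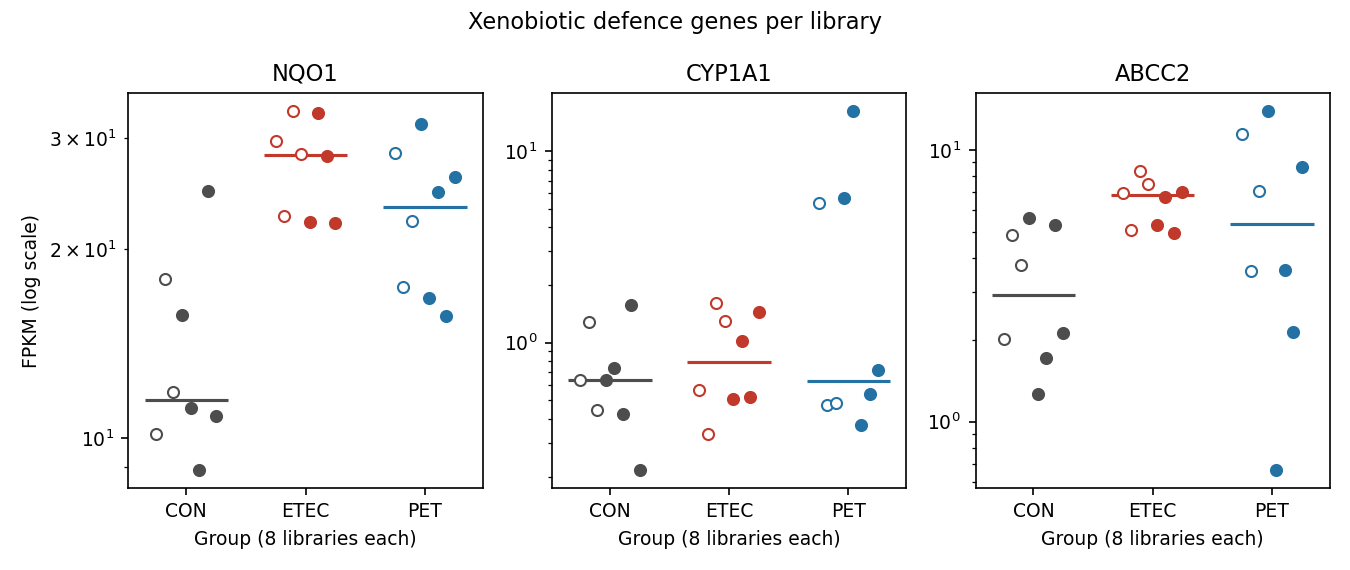
FPKM (log axis) of NQO1, CYP1A1 and ABCC2 in each library of CON, ETEC and PET. Points are libraries, open where the library lies close to a sum of 2 others, and horizontal lines are group medians. The ETEC libraries of NQO1 (22.03 to 33.1) sit above 7 of the 8 controls, while CYP1A1 has 3 PET libraries at 5.34 to 16.1 and the other 5 at 0.370 to 0.723.

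CYP1A1 was scarce in most libraries and high in 3 PET libraries. In CON it ran from 0.217 FPKM in CON-8 over a median of 0.638 to 1.58 in CON-7, on counts of 15 to 95 per library. In ETEC it ran from 0.336 in ETEC-2 over a median of 0.791 to 1.62 in ETEC-3, on counts of 33 to 203. In both groups the libraries spread over nearly the same range, with 1 ETEC library above all controls.

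In PET, CYP1A1 stood at 16.1 FPKM in PET-5, 5.70 in PET-4 and 5.34 in PET-1, and between 0.370 and 0.723 in the other 5 libraries. The counts behind these levels ran from 30 to 1446. The 3 high libraries lay above all 16 libraries of CON and ETEC, and the other 5 within their range. The PET median of 0.633 FPKM was thus no higher than that of CON or of ETEC, with ratios of medians of 0.991 and 0.7997, whereas the ratios of means were 4.99 and 4.07. Of the 3 high libraries, PET-1 is the one fitted by PET-4 and PET-5, so that 2 of the 14 libraries carry the high level.

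The mean CYP1A1 level was 0.745 ± 0.459 FPKM in controls, 0.913 ± 0.494 in the ETEC group and 3.71 ± 5.49 in the PET group (SD, n = 8 each). The spread in PET, a coefficient of variation of 148%, compares with 61.6% in CON and 54.1% in ETEC. CYP1A1 was 2.02 ± 0.70 higher on the log2 scale in PET than in ETEC (SE, interval 0.58 to 3.47, edgeR adjusted p = 0.0207) and 2.32 ± 0.71 higher than in CON (interval 0.85 to 3.78, adjusted p = 0.0131). The exact two-sided permutation test on log2(FPKM + 0.1) gave adjusted p-values of 0.405 and 0.348. ETEC and CON differed by 0.30 ± 0.68 (interval -1.11 to 1.70, edgeR adjusted p = 0.698). This did not pass, and differences within that interval remain compatible with these libraries.

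PET-5, with the highest CYP1A1, was the library least like any other over the genes of the sum check. Fitted by its best single library, CON-5, it left a relative residual of 0.752, against 0.506 for the next, CON-4. Without PET-5 the CYP1A1 difference was 1.09 against ETEC (adjusted p = 0.159) and 1.39 against CON (adjusted p = 0.0613), neither of which passed. Over the 14 libraries it was 2.42 (adjusted p = 0.157) and 2.70 (adjusted p = 0.127), with 0.28 between ETEC and CON (adjusted p = 0.818). On all libraries, limma voom with sample quality weights, which gives less weight to deviating libraries, put the PET differences at 0.0058 and 0.31.

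Of the 3 genes, CYP1A1 alone passed in PET vs ETEC, where 47% of the genes tested passed and 35.9% were higher. In PET vs CON, CYP1A1 and NQO1 passed, where 41.4% of the genes tested passed and 26.2% were higher. The authors' deposited table calls CYP1A1 up in PET vs CON (log2 fold change 2.34, adjusted p = 0.0362), where it calls 31.1% of its genes. For PET vs ETEC, where it calls 35.8%, the authors' deposited table lists 1.98 with an adjusted p of 0.0928 and no call.

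ABCC2 was intermediate in level, and its libraries were most widely spread in PET. In CON it ran from 1.26 FPKM in CON-5 over a median of 2.93 to 5.59 in CON-4. In ETEC it ran from 4.93 in ETEC-7 over a median of 6.80 to 8.34 in ETEC-3, with 5 of the 8 libraries above every control and the other 3 within the range of CON. In PET it ran from 0.664 in PET-5 over a median of 5.33 to 13.8 in PET-4. Of the PET libraries, 3 lay above every ETEC library, 4 below every ETEC library and 1 within, so the PET range spans the whole of ETEC.

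The mean ABCC2 level was 3.32 ± 1.75 FPKM in controls, 6.47 ± 1.24 in the ETEC group and 6.37 ± 4.67 in the PET group (SD, n = 8 each), with coefficients of variation of 52.7%, 19.1% and 73.3%. The log2 difference between ETEC and CON was 0.96 ± 0.45 (SE, interval 0.04 to 1.89), which missed the threshold in edgeR (adjusted p = 0.0575). It passed in the exact two-sided permutation test on log2(FPKM + 0.1) (adjusted p = 0.00618) and in DESeq2 (adjusted p = 0.0374). It also passed in edgeR without CON-4 (1.11, adjusted p = 0.0396) or without CON-7 (1.09, adjusted p = 0.0420). The authors' deposited table calls ABCC2 up here (log2 fold change 1.02, adjusted p = 0.00115).

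PET and ETEC differed in ABCC2 by -0.02 ± 0.44 (interval -0.94 to 0.89, edgeR adjusted p = 0.973), and PET and CON by 0.94 ± 0.45 (interval 0.02 to 1.86, adjusted p = 0.0939). The sign of the first turned with the left-out library, between -0.29 and 0.15. The second passed only without PET-5 (1.11, adjusted p = 0.0220), the library with the lowest ABCC2. Over the 14 libraries the 3 differences were 0.91, -0.05 and 0.86, none of which passed.

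**Figure D2:**
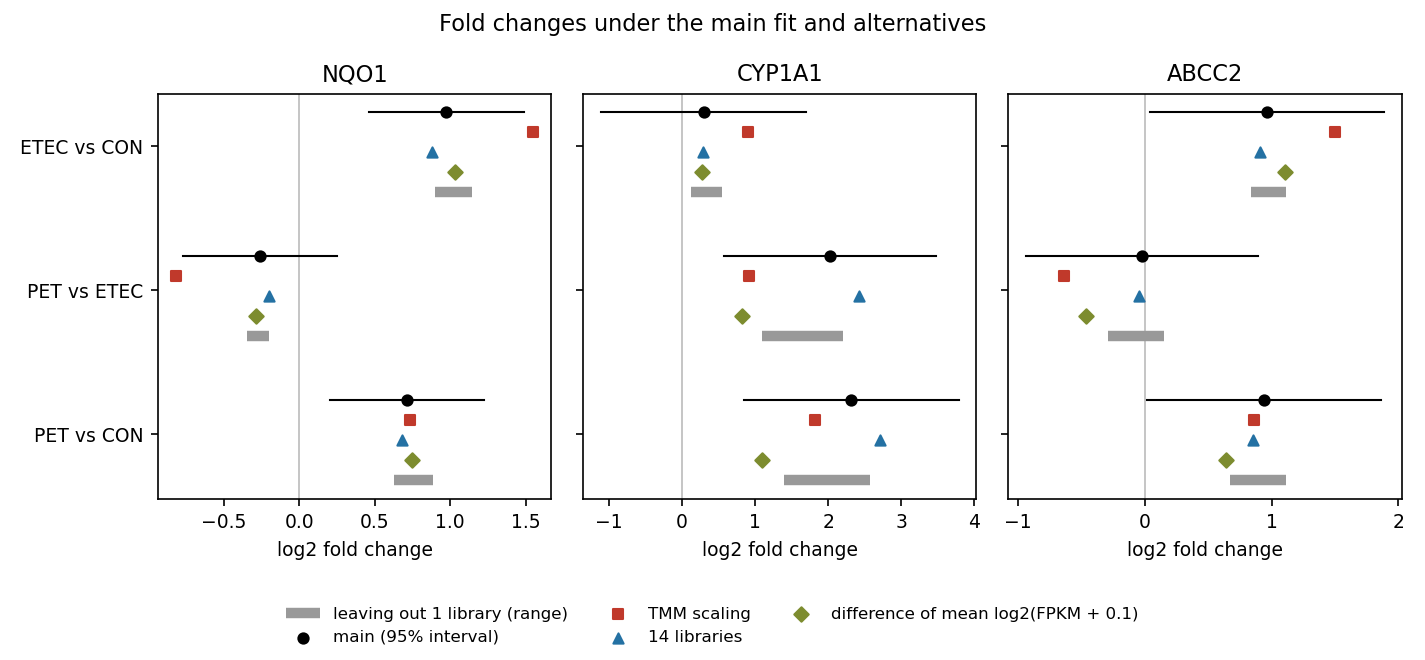
Log2 fold changes of the 3 genes in the 3 comparisons. Black points are the edgeR values with 95% intervals, red squares TMM scaling, blue triangles the 14 libraries, green diamonds differences of mean log2(FPKM + 0.1), and grey bars the range on leaving out 1 library. For CYP1A1 the green diamonds (0.82 for PET vs ETEC, 1.10 for PET vs CON) lie far below the edgeR values of 2.02 and 2.32.

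Within groups NQO1 and ABCC2 varied together, and CYP1A1 followed them less closely. Spearman's correlation of log2(FPKM + 0.1), after removing each group's mean, was 0.807 between NQO1 and ABCC2 over the 24 libraries and 0.837 over the 14. ABCC2 was the gene most like NQO1 among 167 named genes averaging 1 FPKM or more. The correlation of CYP1A1 was 0.428 with NQO1 and 0.338 with ABCC2, falling to 0.262 and 0.117 over the 14, and CYP1A1 ranked 23 of the 167 in likeness to NQO1 and 37 in likeness to ABCC2. PET-5 shows the contrast in a single library: of all 24, it had the highest CYP1A1 and the lowest ABCC2, and ranked 17 in NQO1. PET-4 was high in all 3, ranking 2, 1 and 3 in CYP1A1, ABCC2 and NQO1. These correlations are descriptions, since all values of a library share its depth and tissue make-up.

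**Figure D3:**
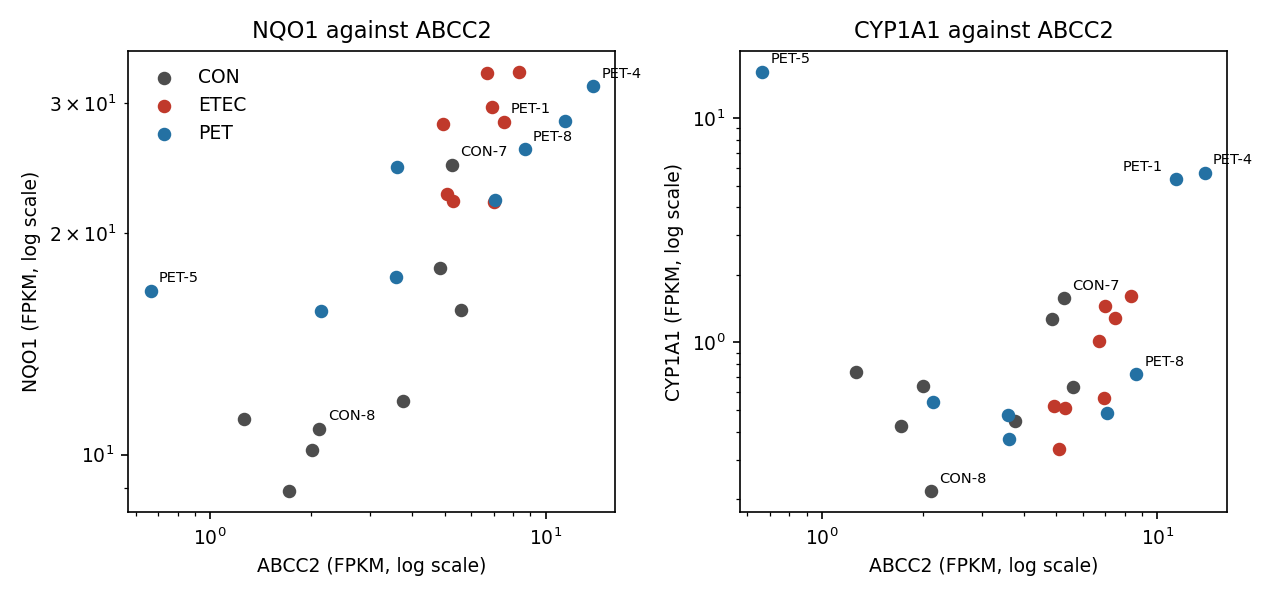
NQO1 (left) and CYP1A1 (right) against ABCC2, each in FPKM on log axes, with 1 point per library coloured by group. NQO1 and ABCC2 climb together in the left panel, while in the right panel PET-5 combines the highest CYP1A1 (16.1) with the lowest ABCC2 (0.664).

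The genes next most like NQO1 were ENPP3, an ectonucleotidase of the cell surface (0.799), MTTP, which loads lipid onto nascent lipoproteins (0.766), and SCTR, the secretin receptor (0.736). ENPP3 and MTTP were also the genes most like ABCC2 (0.936 and 0.893), followed by NQO1 and by UNC93A (0.748). ENPP3 was 113.9 ± 14.9 FPKM in ETEC against 46.3 ± 36.6 in CON, and in PET it ran from 2.91 in PET-5 to 271.3 in PET-4 (SD, n = 8). MTTP was 69.1 ± 6.13 FPKM in ETEC against 34.2 ± 10.9 in CON, and ran from 15.0 in PET-5 to 119.1 in PET-4. Both ENPP3 and MTTP also belong to the enterocyte markers described next. Most like CYP1A1 were C3orf85 (0.863), ACTA1, an actin of skeletal muscle (0.851), GAL3ST1, a sulphotransferase of glycolipids (0.816), and PDZK1, a scaffold of apical transporters (0.809). ACTA1 and GAL3ST1 had their highest level in PET-5, at 19.4 and 11.8 FPKM, as CYP1A1 did.

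Markers of the absorptive cell varied widely between the libraries. Of 33 enterocyte markers 13 were found in the table by gene symbol, among them ANPEP, ENPEP and SLC6A19. Only 240 of the 639 listed genes carry a symbol. The summed level of the 13 ran from 149.7 to 1268 FPKM (CON), 233.7 to 290.2 (ETEC) and 173.6 to 2630.3 (PET). CPO and TMIGD1 had a count of 0 in some library, and the other 11 in none. In edgeR 1 of the 13 rose and 8 fell for ETEC vs CON, where 29.6% of all genes tested were higher and 41.2% lower. For PET vs ETEC 11 rose and 0 fell, against 35.9% higher and 11.1% lower, and for PET vs CON 3 rose and 0 fell, against 26.2% and 15.3%. Their geometric mean was 3.45 to 4.51 FPKM in all ETEC libraries, and also 3.94, 4.37 and 3.63 in CON-4, CON-7 and CON-8 and, among the PET libraries, 3.64 (PET-3), 4.08 (PET-6) and 3.97 (PET-8). It was 17.4 to 38.7 in the other controls, 18.4 and 22.1 in PET-2 and PET-7, and 102, 108 and 51.3 in PET-1, PET-4 and PET-5.

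The 3 PET libraries with the highest enterocyte level were thus those with high CYP1A1. Here enterocyte level means this geometric mean of 13 genes that the authors had called somewhere, not a count of cells. The other markers of the list were not analysed. The 13 did not all move together. In edgeR 8 fell and 1 rose for ETEC vs CON, and ENPP3 and MTTP had higher means in ETEC than in CON. CYP1A1 did not follow the enterocyte level throughout. Of the 3 high PET libraries, PET-5 had the lowest enterocyte level (51.3) and the highest CYP1A1 (16.1 FPKM). CON-1 and CON-5, with enterocyte levels of 38.1 and 38.7, had 0.640 and 0.738 FPKM of CYP1A1. CON-7 and CON-8, at 4.37 and 3.63, had 1.58 and 0.217. NQO1 and ABCC2 were not ordered by this mean over the 13 genes, although ENPP3 and MTTP among them correlated with both: PET-1 and PET-4 were high in both, and PET-5, with the next highest enterocyte level, was low in both. Among the controls, CON-4 and CON-7, which had an enterocyte level like that of ETEC, had 15.7 and 24.8 FPKM of NQO1 and 5.59 and 5.27 of ABCC2, while CON-8, with a like enterocyte level, had 10.8 and 2.12. The part of the enterocyte markers in the differences of the 3 genes was not tested. Markers of the ileum, the segment beyond the jejunum, varied as well: FABP6, SLC10A2 and OSR2, 3 of 8 on that list, summed to 1.45 to 997.6 FPKM (CON), 1.84 to 5.24 (ETEC) and 4.09 to 288.6 (PET), with none at 0. Their part was not tested either. Of 20 marker lists, all matched by gene symbol, 7 had no match in the table. Among the rest, T and NK cell markers (3 of 17) summed to 22.8 to 101.8 FPKM (CON), 17.1 to 25.7 (ETEC) and 21.8 to 133.4 (PET). Hepatocyte markers (5 of 12) summed to 1.82 to 124.1, 6.95 to 17.7 and 2.52 to 15.8 FPKM, and colon markers (4 of 11) to 10.0 to 62.4, 20.6 to 46.3 and 6.73 to 134.9. None of these 12 genes had a count of 0 in any library, and their part in the results was not tested. Also in the table were genes of the goblet, Paneth, enteroendocrine, stem and crypt, macrophage, neutrophil, mast and eosinophil, and duodenum lists. Neutrophil markers (3 of 10), for example, summed to 24.9 to 76.3 FPKM (CON), 8.03 to 34.0 (ETEC) and 0.893 to 106.7 (PET). The part of these lists was not tested either.

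**Figure D4:**
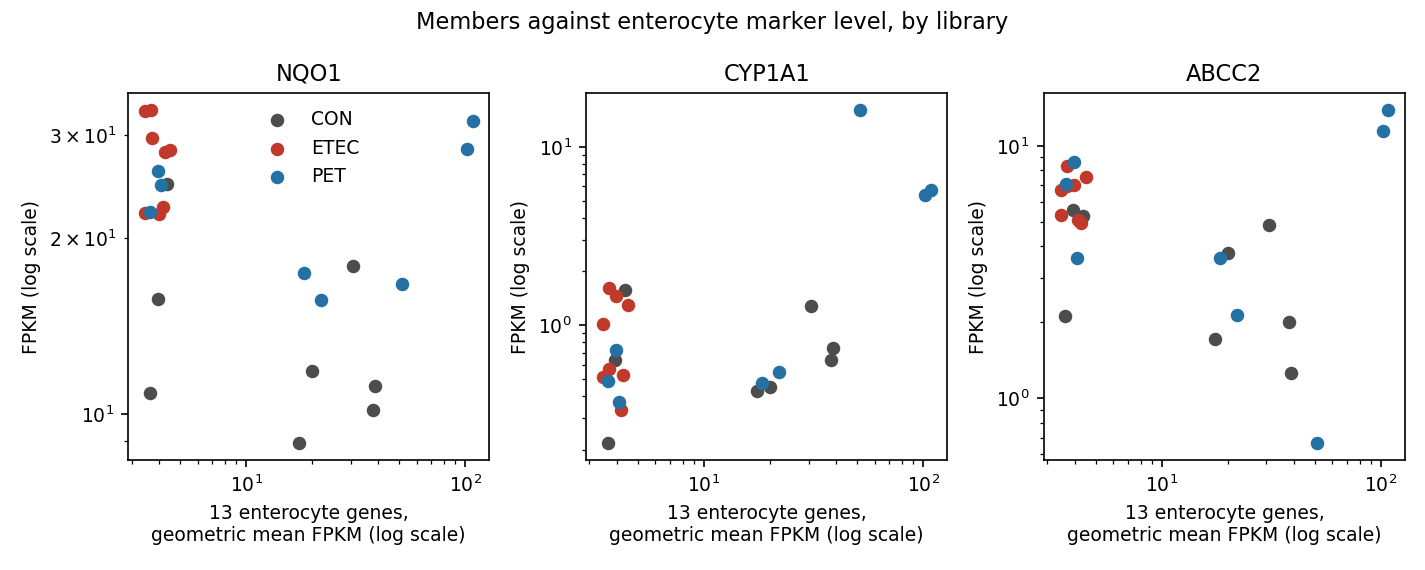
FPKM of NQO1, CYP1A1 and ABCC2 against the geometric mean FPKM of 13 enterocyte genes, log axes, 1 point per library coloured by group. ETEC libraries gather at 3.45 to 4.51 on the horizontal axis, and the 3 PET libraries at 51.3 to 108 are those with CYP1A1 at 5.34 to 16.1.

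By gene symbol, few other genes of foreign-chemical handling were found in the table. Only 240 of its 639 genes carry a symbol, so a list gene listed without one was not matched. Of 201 genes on 6 lists (AHR targets, NRF2 targets, oxidation and hydrolysis, conjugation, transport, and the sensing nuclear receptors) 11 were listed, the 3 genes included. By list these were 3 of 13, 2 of 26, 5 of 65, 2 of 65, 4 of 34 and 0 of 12. A gene of these lists outside the table is not analysed here, so the counts cover genes that the authors had called somewhere. Beside the 3 genes the lists had 8 in the table, and all 8 could be tested.

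In ETEC vs CON 2 of the 8 rose and 5 fell, where 29.6% of all genes tested were higher and 41.2% lower, with a median log2 difference of -1.41 against -0.63 over all genes tested. The 2 that rose, as NQO1 did, belong to conjugation: SULT2A1, a sulphotransferase of steroids and bile acids (1.19 ± 0.46, adjusted p = 0.0259), and ACSM3, an acyl-CoA synthetase (1.05 ± 0.27, adjusted p = 0.0036). The oxidation genes FMO1, CYP2E1 and ALDH3A1 fell, with log2 differences of -1.29, -2.28 and -1.54, and none of the 3 passed with TMM scaling (-0.68, -1.75 and -0.91, adjusted p = 0.109, 0.0679 and 0.140). ALDH3A1, an aldehyde dehydrogenase, is an AHR target like CYP1A1 and NQO1, so that NQO1 rose, ALDH3A1 fell and CYP1A1 did not pass among the 3 listed AHR targets. The uptake transporters SLCO4C1 and SLC22A7 fell too, with log2 differences of -3.75 and -1.62. ABCC2 was the only exporter among the list genes in the table.

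FMO1 averaged 3.06 ± 0.943 FPKM in CON against 1.25 ± 0.174 in ETEC (SD, n = 8 each), and 1 control library reached down into the ETEC range. SLCO4C1 averaged 7.94 ± 7.25 FPKM in CON against 0.588 ± 0.174 in ETEC (SD, n = 8 each), with CON-4, CON-7 and CON-8 at 0.515, 0.525 and 0.538 inside the ETEC range. PET-3, PET-6 and PET-8 lay there as well, at 0.661, 0.682 and 0.484, and the other PET libraries at 4.43 to 25.3. These 6 libraries outside ETEC are those with an enterocyte level like that of ETEC, and the part of the enterocyte markers in the SLCO4C1 differences was not tested. CYP2E1, better known from liver, ran from 0.0350 to 8.78 FPKM in CON, and its call went without CON-4, the highest control (-1.70, adjusted p = 0.0565). The call of ALDH3A1 went without CON-1 (-1.34, adjusted p = 0.0628) or CON-6 (-1.13, adjusted p = 0.0935), and that of SULT2A1 without CON-1 (1.08, adjusted p = 0.0507) or ETEC-5 (0.99, adjusted p = 0.0603). With TMM scaling, which called 51.4% of the genes, SULT2A1 and ACSM3 rose and SLCO4C1 fell, the other 5 not passing. Over the 14 libraries none of the 8 passed in any comparison with edgeR, while SLCO4C1 passed with DESeq2 in both comparisons with ETEC.

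In PET vs ETEC 2 of the 8 rose and 1 fell, where 35.9% of all genes tested were higher and 11.1% lower, with a median of 0.76 against 0.45 over all genes tested. SLCO4C1 rose by 3.75 ± 0.85 (adjusted p = 0.0024) and SLC15A1, the peptide transporter of the brush border that also carries peptide-like drugs, by 1.52 ± 0.44 (adjusted p = 0.0086). ACSM3 fell by 0.94 (adjusted p = 0.0091), from 8.55 ± 2.81 FPKM in ETEC to 4.47 ± 1.67 in PET. With TMM scaling, which called 28% of the genes, SLCO4C1 rose and ACSM3 fell, and SLC15A1 did not pass (0.63, adjusted p = 0.175). For PET vs CON 41.4% of the genes tested passed in edgeR and 26.2% were higher. SLC15A1 alone of the 8 passed there (1.26 ± 0.44, adjusted p = 0.0244). Its call went without PET-1 (0.93, adjusted p = 0.0815) or PET-4 (0.78, adjusted p = 0.115). With TMM scaling, which called 38.8% of the genes, SLC15A1 passed in PET vs CON as well (0.97, adjusted p = 0.0335). CYP1A1 and SLC15A1, which is also on the enterocyte list, thus both passed in both comparisons with PET, but they differed in PET-5. SLC15A1 was 152 and 187 FPKM in PET-1 and PET-4. In PET-5, where CYP1A1 was highest, SLC15A1 was 21.8 FPKM, within its CON range of 18.1 to 36.4.

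**Figure D5:**
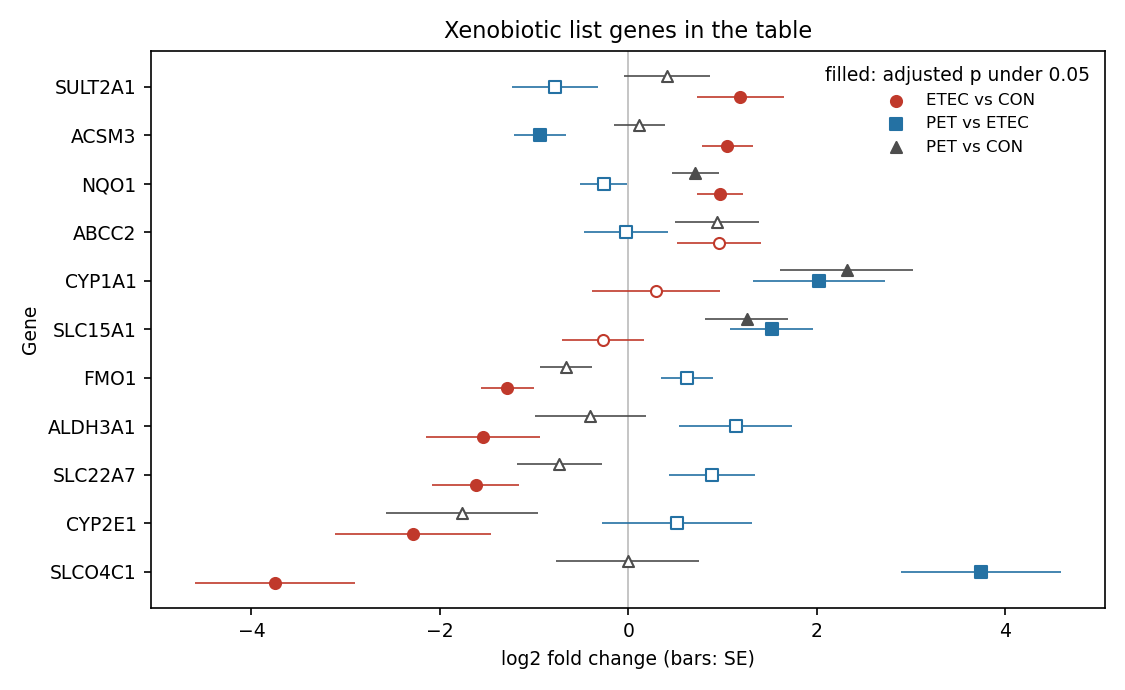
Log2 fold changes (edgeR, bars are SE) of the 11 list genes tested, for ETEC vs CON (circles), PET vs ETEC (squares) and PET vs CON (triangles), filled where the adjusted p is under 0.05. SULT2A1, ACSM3 and NQO1 lie to the right of 0 in ETEC vs CON (1.19, 1.05 and 0.97), and SLCO4C1 moves by -3.75 and then 3.75.

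Another 9 loci, not matched to the 6 lists by symbol and chosen after the values were seen, carry an annotation of this defence in the deposited table. Of these, 4 match 1 protein, ABCC4, and another is MPO, myeloperoxidase, which is also a neutrophil marker. The 4 ABCC4 loci, all on chromosome 15, differed in direction in ETEC vs CON. Their log2 differences were 1.44, 4.09, -1.20 and 0.86 (edgeR adjusted p = 0.0161, 0.0082, 0.0224 and 0.0698), the last not passing. Of the 8 loci that could be tested, 3 rose and 2 fell in edgeR for ETEC vs CON, against 29.6% higher and 41.2% lower over all genes. For PET vs ETEC 2 rose and 0 fell, against 35.9% and 11.1%, and for PET vs CON 4 rose and 0 fell, against 26.2% and 15.3%. In edgeR none of the 8 passed over the 14 libraries. The most abundant matches UDP-glucuronosyltransferase 1A3 and is ENSBGRG00000013091, on chromosome 3 from 123899644 to 124073858, plus strand. In human, UGT1A3 makes glucuronides, a kind of conjugate that ABCC2 exports. Its level was 13.02 to 59.9 FPKM (CON), 68.3 to 78.6 (ETEC) and 28.2 to 62.4 (PET). Every ETEC library lay above every library of CON and of PET. Over all genes tested, ETEC and CON did not overlap in 12.3%, and ETEC and PET in 2.77%. ENSBGRG00000013091 rose by 1.04 ± 0.28 in ETEC vs CON (edgeR adjusted p = 0.0046), and its difference of -0.52 in PET vs ETEC did not pass in edgeR (adjusted p = 0.133) but did with TMM scaling (-1.04, adjusted p = 0.0371) and in the exact permutation test (-0.56 on log2(FPKM + 0.1), adjusted p = 0.0056). Over the 14 libraries neither passed in edgeR (0.96, adjusted p = 0.205, and -0.51, adjusted p = 0.516), and DESeq2 on the 14 did not call the first either (adjusted p = 0.136). The UGT1 locus makes several related proteins in mammals that share some of their exons, so the counts cannot be given to 1 of them.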

How the data were processed

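Jejunal RNA of 24 libraries was compared between CON, ETEC and PET, with groups from the sample titles. Per the file headers, the authors deposited a whole-number read count and an FPKM value per gene and library. The authors also deposited log2 fold changes and p-values, raw and adjusted, for the 3 comparisons. The labels' protocols describe TRIzol extraction and, at odds with a gene-level table, enrichment of small RNAs. The sources used here name no aligner, counter, strand setting or build. Symbols and coordinates are those of the authors' table, and no sequence was matched to the genes.

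Counts were tested in edgeR 4.0.16 (R 4.3.3) with the quasi-likelihood test, filterByExpr and 1 fit over the 3 groups. Library sizes came from the count/FPKM ratios of each library (genes of 20 counts or more), because TMM presumes mostly unchanged genes and the table holds called genes only. TMM moved the median log2 fold change of all genes by 0.61 (ETEC vs CON), -0.62 (PET vs ETEC) and -0.02 (PET vs CON). Adjusted p-values are Benjamini-Hochberg over the 577 genes tested, with a threshold of 0.05, and 62 genes were not tested. The exact permutation used all 12870 regroupings of 8 against 8 libraries, with a smallest possible p of 0.0001554. The permutation too treats each library as independent. Closeness of a library to a sum was judged over 253 pairs and 510 genes off the Y chromosome that averaged 20 counts or more, at a residual ratio below 0.8.

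Named genes were the 3 genes, all members of the 6 lists found in the table by symbol, and the 4 genes most like each. A further gene is not reported here. The genes, lists and tests were chosen with earlier results of these data known. Replicate numbers were not used to pair the libraries in the main fit. Alternatives used DESeq2 1.42.0, limma 3.58.1, other scalings, no filter, 2 groups only, a replicate block, the 14 libraries, and leaving out each library. The edgeR step, but not the limma steps, was tested on simulated counts. Of the 3 genes, depth limits precision most for CYP1A1, with counts down to 15 per library. Counts were lower still for CYP2E1 (down to 2), ALDH3A1 (5), SULT2A1 (6) and SLC22A7 (10).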

Additional observations from a re-analysis of the deposited data

Results flagged for a closer look

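Within each group of 8 libraries, the highest or lowest value was marked where its gap to the nearest other value was more than 0.526 of the group's range. Over 33 groups of values of the xenobiotic list genes, 5 were marked. The limit marks about 1 in 20 groups of independent, normally distributed values. The groups here share libraries, some of which lie close to sums of others, so that rate need not hold for them.

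PET-5 carried 3 of the 5. Its CYP1A1 level was 16.1 FPKM against 0.370 to 5.70 in the other PET libraries. Its ALDH3A1 level, from another AHR target, was 2.17 FPKM against 0.115 to 0.311. SLC22A7 stood there at 2.17 FPKM against 0.239 to 1.11.

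The other 2 were in ETEC. ALDH3A1 was 0.340 FPKM in ETEC-8 against 0.166 to 0.229 in the rest. SULT2A1 was 0.999 FPKM in ETEC-5 against 0.280 to 0.602.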

How the results depend on the processing

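The differences of the 3 genes and the numbers of called genes were recomputed under 29 alternatives, as were the called differences of the other list genes and the differences of ENSBGRG00000013091. Marker counts and correlations were not, apart from the 14-library correlations. NQO1 in ETEC vs CON passed in 26 of them, NQO1 in PET vs CON in 23, CYP1A1 in 18 for PET vs ETEC and 21 for PET vs CON. ABCC2 passed in 11 for ETEC vs CON, 0 for PET vs ETEC and 1 for PET vs CON. Among the 3 genes a sign turned for ABCC2 in PET vs ETEC only. Unless stated, the cause of a change was not tested. The 14-library fits have fewer samples and leave out the libraries close to sums. The part of each in the lost calls was not tested.

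For ETEC vs CON, ABCC2 passed with TMM at 1.503, with DESeq2 size factors at 1.32, with only the groups compared at 0.963, with DESeq2 at 0.964, with limma voom at 1.01, with limma on log2(FPKM + 0.1) or the permutation at 1.10 and on log2(FPKM + 1) at 0.882. Adjusted p-values over all its alternatives ran from 0.0034 to 0.352. NQO1 lost its call over the 14 libraries with edgeR at 0.880, with TMM at 1.06 and with DESeq2 at 0.881, and the called genes of the table went from 409 to 0 with edgeR, from 297 to 11 with TMM and from 455 to 79 with DESeq2.

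For PET vs ETEC, NQO1 passed with TMM at -0.817. CYP1A1 lost its call with TMM at 0.920, DESeq2 size factors at 1.18, voom at 0.0058, log2(FPKM + 0.1) by limma or permutation at 0.821, log2(FPKM + 1) at 0.669, and over the 14 libraries at 2.42 with edgeR, 1.65 with TMM and 2.42 with DESeq2. Called genes, 271 in all libraries, were 162 with TMM, 171 on log2(FPKM + 1), and 174 by permutation. Over the 14 they went from 271 to 0 with edgeR, from 162 to 0 with TMM and from 286 to 88 with DESeq2.

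For PET vs CON, NQO1 lost its call with TMM at 0.734, with only the groups compared at 0.713, and over the 14 libraries at 0.682, 0.537 with TMM and 0.683 with DESeq2. CYP1A1 lost it with voom at 0.314, log2(FPKM + 0.1) by limma or permutation at 1.10, log2(FPKM + 1) at 0.7999, and over the 14 libraries at 2.70 with edgeR and 2.15 with TMM, while DESeq2 kept it. Called genes, 239 in all libraries, were 130 with only the groups compared, and 145 by permutation. Over the 14 they went from 239 to 10 with edgeR, from 224 to 13 with TMM and from 266 to 81 with DESeq2.

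Leaving out 1 library gave these ranges, with the comparisons in the order above. NQO1 ran from 0.902 to 1.14, from -0.343 to -0.198 and from 0.631 to 0.883. CYP1A1 ran from 0.128 to 0.546, from 1.09 to 2.20 and from 1.39 to 2.57. ABCC2 ran from 0.841 to 1.11, from -0.288 to 0.150 and from 0.675 to 1.11, its middle value turning positive without ETEC-3, ETEC-4, PET-2, PET-5, PET-6 or PET-7. Called genes ran from 369 to 427, 235 to 296 and 209 to 280.

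Same-numbered libraries of different groups correlated at -0.362 to 0.592 (median -0.029, 9 of 24 pairs over 0.1). Libraries of different numbers correlated at -0.668 to 0.609 (median 0.00585, 49 of 168 pairs over 0.1). These ranges overlap and do not settle whether the numbers mark pairs, and the main fit did not pair them. With the replicate number as a block, ABCC2 in ETEC vs CON was 1.10 and passed, CYP1A1 was 0.965 (PET vs ETEC) and 1.40 (PET vs CON) and did not pass, and called genes were 380, 185 and 179. For the other 6 differences of the 3 genes the block changed no call. Of the 3 genes depth limits CYP1A1 most, which had 15 to 203 counts per library in CON and ETEC.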
